A study of Mus musculus with 24 samples.

Results

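Open chromatin at the CHD family genes other than Chd4 was followed in mouse embryonic stem cells. The genes were taken by name from the GENCODE vM21 annotation, and they were Chd1, Chd2, Chd3, Chd5, Chd6, Chd7, Chd8 and Chd9, 8 of 21938 protein-coding genes. Their loci, each a gene body with 10 kb either side, held 208 of the 233707 sites, windows of fixed length around peak summits, that at least 2 libraries called. ATAC-seq, in which a transposase cuts accessible DNA, was done in E14 cells, and 24 peak lists in 12 groups of 2 libraries were used. All cells carried CTCF fused to AID, a degron that removes the protein when the auxin IAA is given. The serum-free cultures comprised a control overexpression line, either untreated or given IAA for 12 h, and 2 further lines given IAA for 12 h, one with extra wild type CTCF and one with extra mutated CTCF. In the Chd4 set and the Chd8 set, cells without IAA carried the hairpin labelled shluci, shRNA1 or shRNA2, with the latter pair directed at Chd4 or Chd8. The serum set held cells without IAA and after 12 h of IAA, although the growth protocol in the labels gives serum-free medium for every library. The labels do not say which residues of CTCF were mutated, how many clones each line had or whether the 2 libraries of a group came from separate cultures. The p-values therefore measure the spread between libraries, which may be technical.

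CHD proteins are ATP-driven nucleosome remodellers that carry paired chromodomains and a helicase-like motor. Chd1 and Chd2 form one branch, Chd3 and Chd5 share with Chd4 the PHD fingers of NuRD complex motor subunits, and Chd6 to Chd9 form the remaining branch. Related remodellers can occupy the same promoters, so the question was whether accessibility at the other genes moved when Chd4 or Chd8 was targeted. A hairpin acts on RNA, so peaks at Chd4 or Chd8 do not show how far either was depleted, and no RNA or protein level was measured here.

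The sequences below are promoters that were often and seldom called accessible. They are the 200 bases that end 50 bases before the RefSeq start, on the strand of the gene, from RefSeq on GRCm38.p6. The table matched 4 of the 8 genes, and Chd1, Chd2, Chd3 and Chd7 are named only. Chd8 and Chd6 stood near the top of most lists, and Chd5 was without a promoter peak in most libraries. Capitals mark the CCAAT box on either strand and the octamer ATGCAAAT.
Chd8, chr14:52257811-52258010, minus strand: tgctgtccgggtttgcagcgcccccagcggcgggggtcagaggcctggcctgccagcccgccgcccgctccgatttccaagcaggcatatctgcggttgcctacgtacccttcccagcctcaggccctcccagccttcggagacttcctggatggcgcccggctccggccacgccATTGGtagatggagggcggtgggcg
Chd6, chr2:161109137-161109336, minus strand: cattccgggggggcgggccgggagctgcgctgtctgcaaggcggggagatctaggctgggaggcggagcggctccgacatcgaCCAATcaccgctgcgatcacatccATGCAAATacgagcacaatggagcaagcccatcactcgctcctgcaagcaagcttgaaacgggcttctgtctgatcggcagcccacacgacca
Chd5, chr4:152338401-152338600, plus strand: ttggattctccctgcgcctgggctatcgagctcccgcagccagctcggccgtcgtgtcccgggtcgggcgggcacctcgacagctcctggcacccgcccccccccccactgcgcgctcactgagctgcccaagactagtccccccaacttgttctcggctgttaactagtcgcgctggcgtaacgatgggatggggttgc
The Chd9 promoters, also matched, are not printed. The 250 bases before the start held 20 CpG in Chd8, 19 in Chd6, 21 in Chd5, 16 at the Chd9 start at 483 bp, whose bases overlap an exon, and 1 at the Chd9 start near 104 kb, against a median of 6 over 32851 promoters. The 5 letters CCAAT were present on either strand in 28.4% of these promoters of the same length, and the octamer in 1.32%.

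The CHD genes differed in how many libraries had a peak at their start. A promoter peak is one within 1 kb of an annotated start, in lists cut to equal length within each set, and its percentile is its place in that list by −log10 p, with 0 for no peak. It ranks a peak among all peaks of its library and is not an expression level. Chd1, which binds methylated histone tails, Chd8, a remodeller known to bind CTCF and linked to autism, and Chd9 had a promoter peak in all 24 libraries. Such a peak in all 24 was found for 24.02% of all protein-coding genes. Chd6 had one in 23 libraries and Chd2, a gene linked to epilepsy, in 22, and at least 22 was the count for these 5 genes and for 43.003% of all protein-coding genes. Chd7, mutated in CHARGE syndrome, had one in 20. Chd5, known for its expression in brain and testis, had one in 5, and Chd3, a NuRD subunit gene, in 1. At most 5 libraries was the count for 29.2% of all protein-coding genes.

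The median percentile over the 24 libraries was 98.99 for Chd6, 98.7 for Chd8, 94.6 for Chd9, 93.9 for Chd1, 82.5 for Chd2, 44.8 for Chd7 and 0 for Chd5 and Chd3. Neighbours in this order overlapped over their ranges. Chd8 ran from 17.8 to 99.9 and Chd9 from 61.5 to 98.9, and both of the lowest values came from the Chd4 set. The plot of promoter percentiles shows the same for Chd6, which had no promoter peak in 1 library labelled shRNA2 of that set. The Chd2 start lies inside the noncoding genes 1810026B05Rik and Gm44686, and the Chd6 start lies within 1 kb of the start of Gm45447, so the signals of Chd6 and Gm45447 cannot be told apart.

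**Figure D1:**
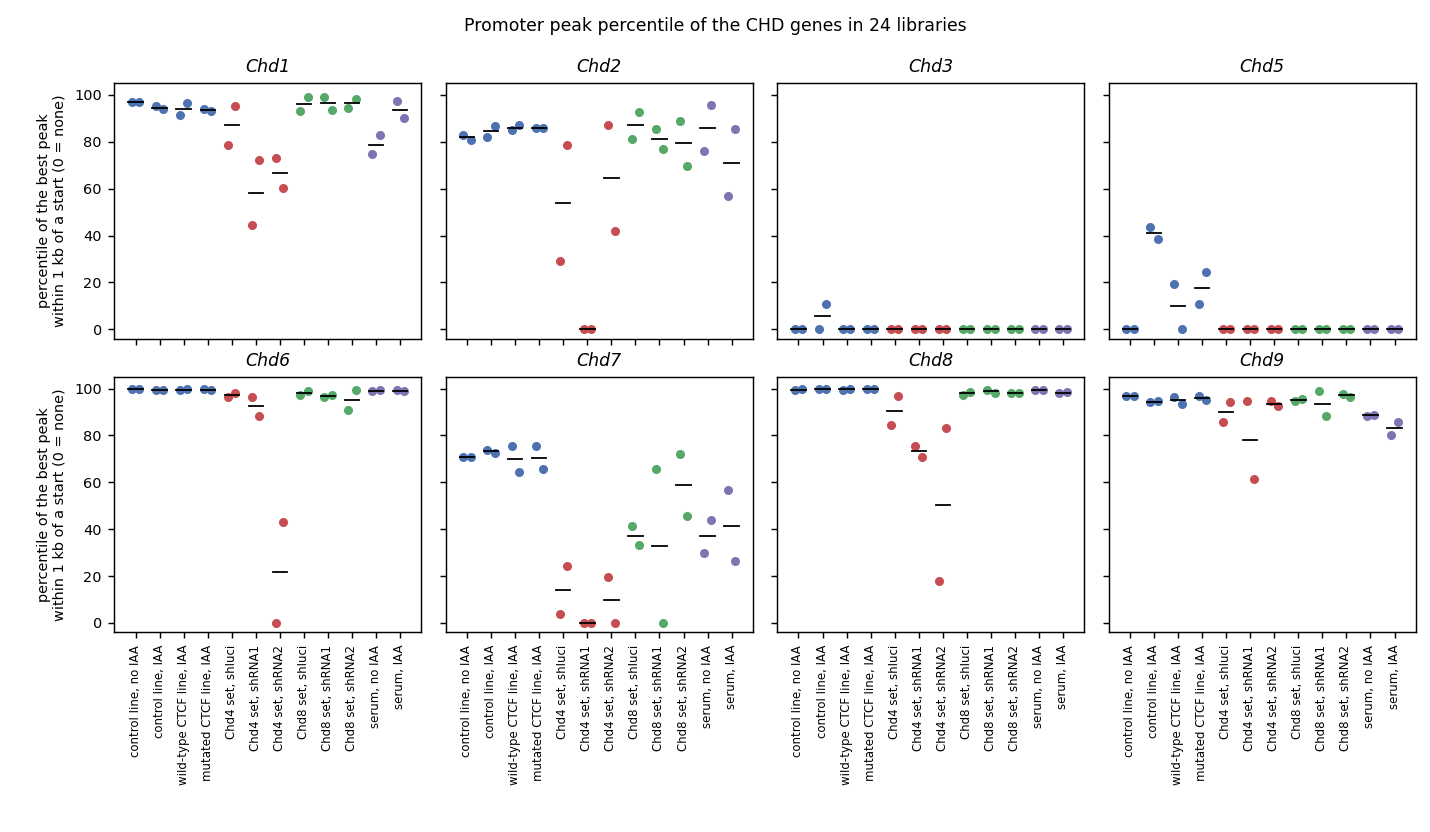
Percentile of the best peak within 1 kb of a start (vertical axis, 0 where no peak) in each of 24 libraries (points) of 12 groups, with group means as bars. Chd8 sat above 97 outside the Chd4 set (red), while Chd3 stayed at 0 in 23 libraries.

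The second starts of Chd1, Chd3 and Chd9, at most 483 bp from the other, had a peak within 1 kb in as many libraries as the other, while the second Chd5 start had one in 5 libraries against 1 for the first. The start of Chd7 at 61.0 kb into the gene had a peak within 1 kb in 18 libraries, against 14 for the start at 515 bp. The Chd9 start at 104 kb had one in 13 libraries, 8 of them from the CTCF lines and none from serum. A second Chd8 start at 20.2 kb had one in 1 library. Chd5 was accessible inside the gene rather than at its start: sites at 2.22 kb and 13.1 kb were each called in 22 libraries.

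The loci differed in how many peaks they held. The mean over 24 libraries was 24.7 peaks for Chd9, 17.4 for Chd7, 17.3 for Chd2, 8.04 for Chd1, 7.21 for Chd6, 6.67 for Chd8, 6.58 for Chd5 and 2.71 for Chd3. The median over the 8 genes was 9.002 peaks per 100 kb, beside 7.27 over all protein-coding genes. Of the 208 sites, 133 were intronic, 33 lay in the flanks, 17 within 1 kb of the start of another gene, 14 within 1 kb of a start of the CHD gene and 11 over its exons.

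The map of calls shows each site in each library. All 8 libraries of the CTCF lines called 37.5% of the 208 sites, against 40.4% of all windows. All 6 libraries of the Chd4 set called 6.25% against 6.05%, all 6 of the Chd8 set 20.2% against 18.7% and all 4 of the serum set 23.6% against 19.6%. Each CHD share was close to that of all windows. The lists differed between sets, and median peak length ran from 102 to 146 bp with the Chd4 set hairpins and from 343 to 456 bp for CTCF lines, so levels were not compared between sets.

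**Figure D2:**
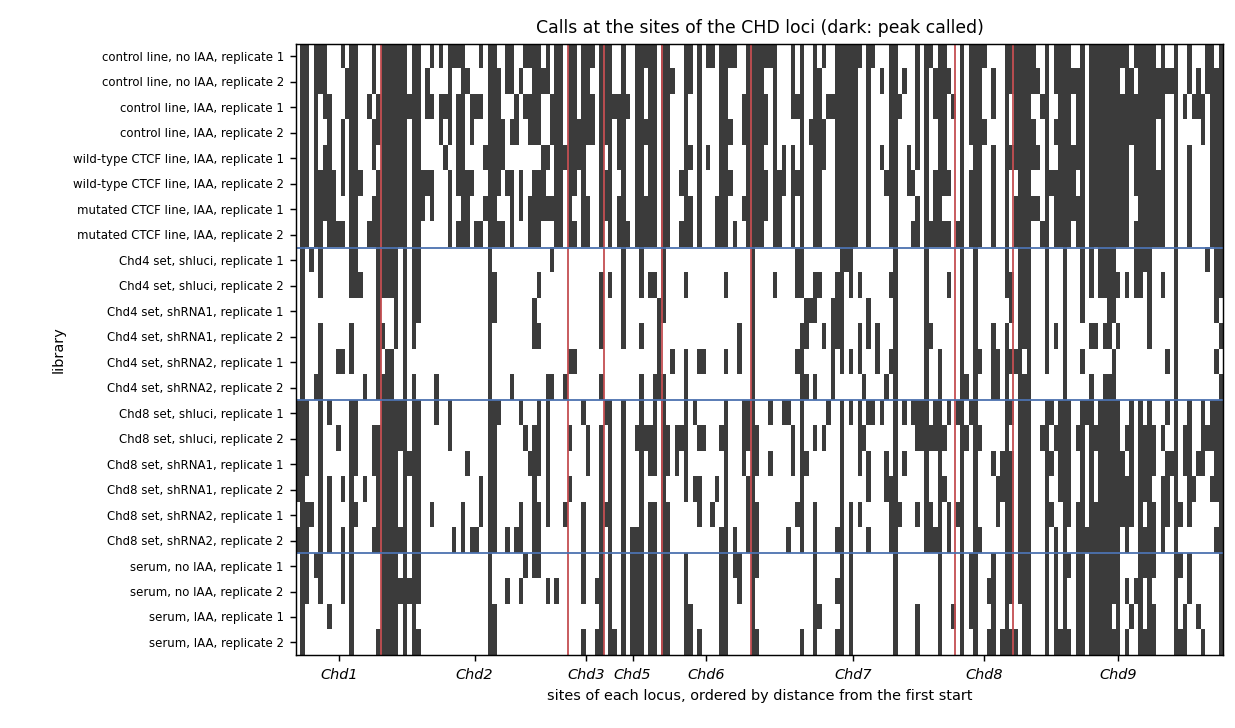
Calls (dark) at the 208 sites of 8 CHD loci (horizontal axis, ordered by distance from the first start and divided by red lines) in 24 libraries (vertical axis, sets divided by blue lines). The 6 libraries of the Chd4 set share 13 dark columns, and 10 columns are dark in all 24 libraries.

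A core of 10 sites was called in every library. Chd9 held 3, at 0.562, 26.7 and 127 kb from its first start. Chd8 held its start and an intronic site at 13.2 kb, which lay at the 95.3 percentile or above in all CTCF line and serum libraries. Chd2 held 2 in introns at 17.2 and 79.8 kb, Chd7 held an upstream site 2.21 kb away and an intronic one at 109 kb, and Chd1 held its start. Being called in all 24 libraries applied to 4.81% of the CHD sites and 3.72% of all windows.

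With Chd4 targeted, the Chd1 and Chd8 promoters stood lower in the lists in all 4 hairpin libraries than in either shluci library, and no CHD promoter stood higher in all 4. Chd2, Chd6, Chd7 and Chd9 overlapped between the groups. The mean difference was negative in each of the 6 genes with a promoter peak in the set, with a median of −23.1 percentile points. The median over all 14826 genes tested was −9.26, so the direction was shared by the genome. Beside the 2 lower CHD genes, 21.4% of all genes tested were lower in this way and 4.13% higher.

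Chd1 stood at 78.6 and 95.4 with shluci, at 44.3 and 72.1 with shRNA1 and at 73.2 and 60.1 with shRNA2. All 4 hairpin libraries lay below both shluci libraries, a difference of −24.6 ± 17.9 (combined SD, 2 against 4, exact permutation p = 0.133, two-sided). Chd8 stood at 84.4 and 96.9 with shluci, at 75.7 and 70.8 with shRNA1 and at 17.8 and 83.0 with shRNA2. All 4 hairpin libraries lay below both shluci libraries, with a difference of −28.8 ± 31.0 (exact permutation p = 0.333). Without the first shRNA2 library, at 17.8, the Chd8 difference was −14.2, and without the second shluci library that of Chd1 was −16.2. The smallest p that 2 libraries against 4 can give is 0.0667, so no gene could pass 0.05 by this test. Among peaks with −log10 q of at least 10, Chd6 and Chd8 were lower, where 34.3% of genes tested were. Those lists were of unequal length, with 15501 and 16498 peaks for shluci and 6930 to 8563 for the Chd4 hairpins. The Chd1 groups overlapped there, with a difference of −38.7. Without the first shluci library, Chd6 and Chd7 were lower as well, where 34.4% of genes were.

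The other promoters overlapped between groups. Chd9 stood at 85.8 and 94.3 with shluci and at 94.9, 61.5, 94.6 and 92.7 with the hairpins. Chd6 stood at 96.3 and 98.01 with shluci, at 96.6 and 88.3 with shRNA1, and at 0 and 43.1 with shRNA2. Its 2 hairpins therefore gave unlike values, −4.69 and −75.6 percentile points from shluci. Chd2 differed in opposite directions with the hairpins, by −54.0 with shRNA1 and 10.5 with shRNA2, and its shluci libraries were themselves apart at 29.3 and 78.7. Chd7 stood at 3.95 and 24.1 with shluci and had no promoter peak in 3 of the 4 hairpin libraries. Its peaks in this set lay at the start 61.0 kb into the gene. The Chd7 starts at 515 and 959 bp had a peak in 0 of the 6 libraries, shluci included. Chd3 and Chd5 had no promoter peak in any of the 6 libraries.

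Peaks over whole loci gave a mixed picture in the Chd4 set. Chd9 and Chd2 held fewer peaks with every Chd4 hairpin library, and Chd8 held more. Over all 19300 genes tested, 15.7% were lower and 5.08% higher in this way. Chd9 held 22 and 26 peaks with shluci, 14 and 14 with shRNA1 and 11 and 12 with shRNA2. The difference was −11.3 ± 3.20 peaks (combined SD, exact permutation p = 0.0667), and 0.192% of all genes had a more negative one. Its locus spans 246 kb, beside a median of 37.4 kb over all genes, and the part of locus length in this value was not tested. Chd2 held 15 and 14 peaks with shluci, 7 and 10 with shRNA1 and 6 and 11 with shRNA2. Both hairpins gave the same mean difference of −6 peaks (exact permutation p = 0.133 over the 4 libraries).

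Chd8 was the CHD gene that held more peaks in all 4 libraries with a Chd4 hairpin in lists cut to the shortest. In lists at 50% of the shortest no CHD gene did, and the Chd8 difference was 1.25 peaks. With deposited list lengths its groups overlapped (10 and 6 peaks with shluci against 9, 10, 10 and 10), and Chd7 was higher in its place (14 and 14 against 19, 18, 22 and 16). Its locus held 4 and 5 peaks with shluci, 6 and 8 with shRNA1 and 8 and 10 with shRNA2, a difference of 3.5 ± 1.78 (combined SD, exact permutation p = 0.0667). The extra peaks were not shared by all hairpin libraries. The exonic site at 50.7 kb was called in 3 of the 4, at percentiles 73.1 to 73.6 in 2 of them and 51.2 in the third, and the flank site at 66.8 kb in 2 of the 4 and in 1 shluci library. At the same time the Chd8 promoter stood lower, and the shared Supt16 and Gm26590 start at 60.5 kb was at 96.0 and 99.4 with shluci and at 0, 27.4, 27.0 and 84.5 with the hairpins. Supt16 encodes a subunit of the FACT histone chaperone. Over the gene body alone the Chd8 groups overlapped, with a difference of 2.5 peaks. By covered bases they also overlapped. Among peaks with −log10 q of at least 10, where list lengths were unequal, the Chd8 difference was −2.5 peaks.

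The remaining loci overlapped between groups. Chd1 held 9 and 7 peaks with shluci, 3 and 4 with shRNA1 and 9 and 6 with shRNA2. Chd7 held 7 and 14 with shluci and 11 to 16 with the hairpins, Chd5 3 and 7 against 1 to 5, Chd6 2 and 4 against 1 to 6, and Chd3 0 and 1 against 1 to 3. Without the second shluci library, Chd3 and Chd7 joined Chd8 as higher, where 9.23% of all genes tested were. Without the first, Chd5 joined the lower genes, where 25.3% were, and without the first shRNA2 library Chd1 did, where 18.1% were.

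**Figure D3:**
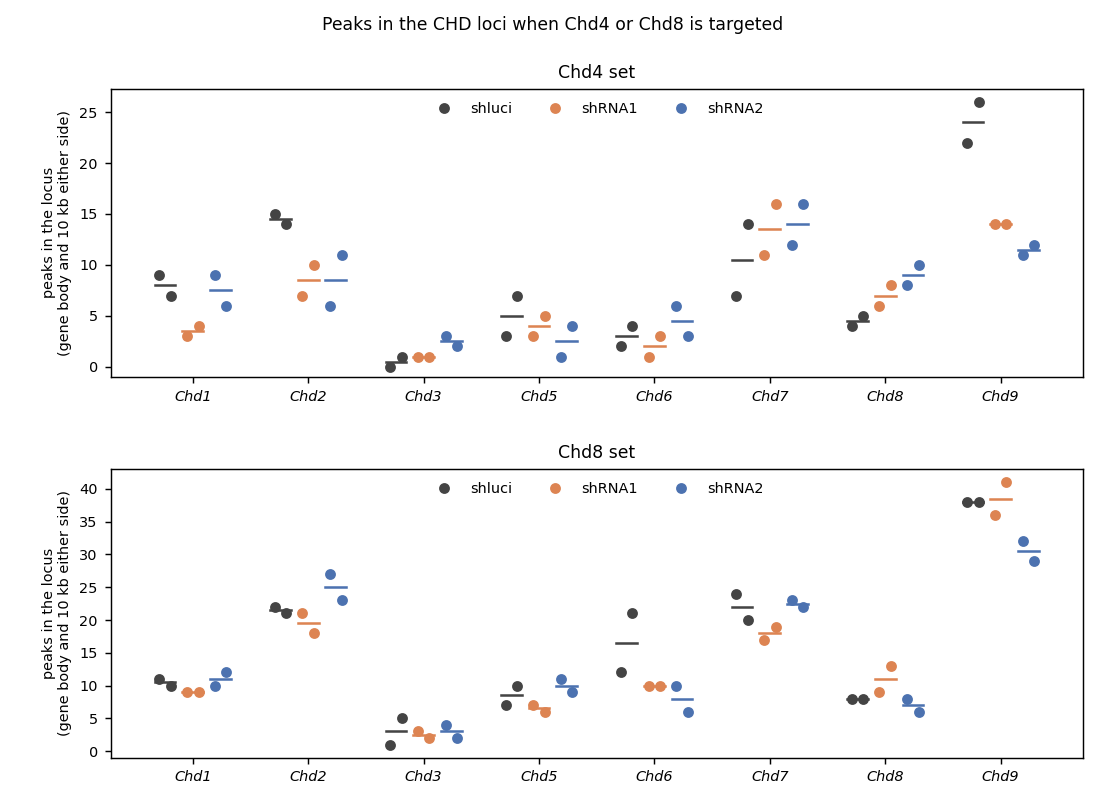
Number of peaks in each CHD locus (vertical axis) in the 2 libraries of each hairpin (points) with their mean (bars), for the Chd4 set (top) and the Chd8 set (bottom). In the Chd4 set the Chd9 points with a Chd4 hairpin lie between 11 and 14, below 22 and 26 with shluci.

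Peak length differed between the groups too. Lists with a Chd4 hairpin had a median peak length of 102 to 112 bp against 134 and 146 bp with shluci. Counted by covered bases, 41.6% of all genes tested were lower with the Chd4 hairpins, and so were Chd1, Chd2 and Chd9. The part of peak length in the counts was not tested. Counted among peaks with −log10 q of at least 10, Chd9, Chd1 and Chd8 were lower, where 28.2% of all genes tested were. List lengths were unequal at that setting, shorter with the hairpins. The Chd2 groups overlapped there, with a difference of −1.75 peaks.

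As a yardstick from the same enzyme class, 23 other SNF2-like remodeller ATPase genes were counted, among them Smarca4, Smarca5, Ino80 and Chd1l. Of these, 12 had a promoter peak in all 24 libraries. With Chd4 targeted, 9 of 23 stood lower at the promoter in all 4 hairpin libraries and none higher, with a median difference of −13.7, beside 21.4% and 4.13% of all genes. Over their loci, 5 held fewer peaks and 2 more, beside 15.7% and 5.08%. In the Chd8 set, 1 promoter stood higher and none lower, beside 3.98% and 6.17%, while 3 loci held fewer peaks and 1 more, beside 3.38% and 3.66%.

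Single sites were called lost when both shluci libraries and no hairpin library called them, and gained in the opposite case. With Chd4 targeted, 4 of the 43 CHD sites that could be lost were lost (9.30%), beside 14.2% of all windows. Of 140 that could be gained, 2 were gained (1.43%), beside 1.92%. Chd9 held 3 of the 4 losses and 17 of the 43 sites that could be lost. Of those 17 Chd9 sites 3 were lost (17.6%, beside 14.2% of all windows).

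The 81 bases around the centre of 5 of these lost or gained sites are given so that they can be compared, all on the plus strand of GRCm38. No letters are in capitals, since none held the CTCF consensus.
Chd9 intron near the Gm45640 start, 48.1 kb, lost, chr8:90876367-90876447: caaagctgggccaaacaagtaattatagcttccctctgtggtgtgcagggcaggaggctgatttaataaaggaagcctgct
Chd9 intron, 70.1 kb, lost, chr8:90898420-90898500: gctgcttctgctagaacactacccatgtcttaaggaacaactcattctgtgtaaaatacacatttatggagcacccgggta
Chd9 intron, 76.2 kb, lost, chr8:90904480-90904560: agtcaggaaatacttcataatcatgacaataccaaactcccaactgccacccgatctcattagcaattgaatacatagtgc
Chd1 intron, 43.3 kb, lost, chr17:15748234-15748314: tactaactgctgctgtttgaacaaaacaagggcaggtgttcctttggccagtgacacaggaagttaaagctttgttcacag
Chd7 intron, 46.8 kb, gained, chr4:8737157-8737237: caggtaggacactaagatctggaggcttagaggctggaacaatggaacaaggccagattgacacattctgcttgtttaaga
The Chd9 site at 48.1 kb was at percentiles 55.3 and 16.7 with shluci, and it was called in 20 of the 24 libraries. The site at 76.2 kb was at 51.3 and 39.5, also in 20 libraries, and the one at 70.1 kb was at 11.8 and 69.9 and called in 9. The sites at 48.1 and 76.2 kb were called in all 6 libraries of the Chd8 set, and the one at 70.1 kb in none of them. The Chd1 site was at 87.8 and 66.2 with shluci and was called in 14 libraries.

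The gained sites were rarer elsewhere in the series. The Chd7 site was at percentiles 71.0, 83.9, 19.1 and 69.5 in the Chd4 hairpin libraries and was called in 5 libraries in all. The other lay 56.3 kb from the Chd5 start, in its downstream flank within Kcnab2. It was at 50.7, 40.9, 77.0 and 5.74 and was called in those 4 libraries and no other. Neither gain remained in lists of deposited length, in lists at 50% of the shortest or with peaks required to cover at least 50% of the window.

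**Figure D4:**
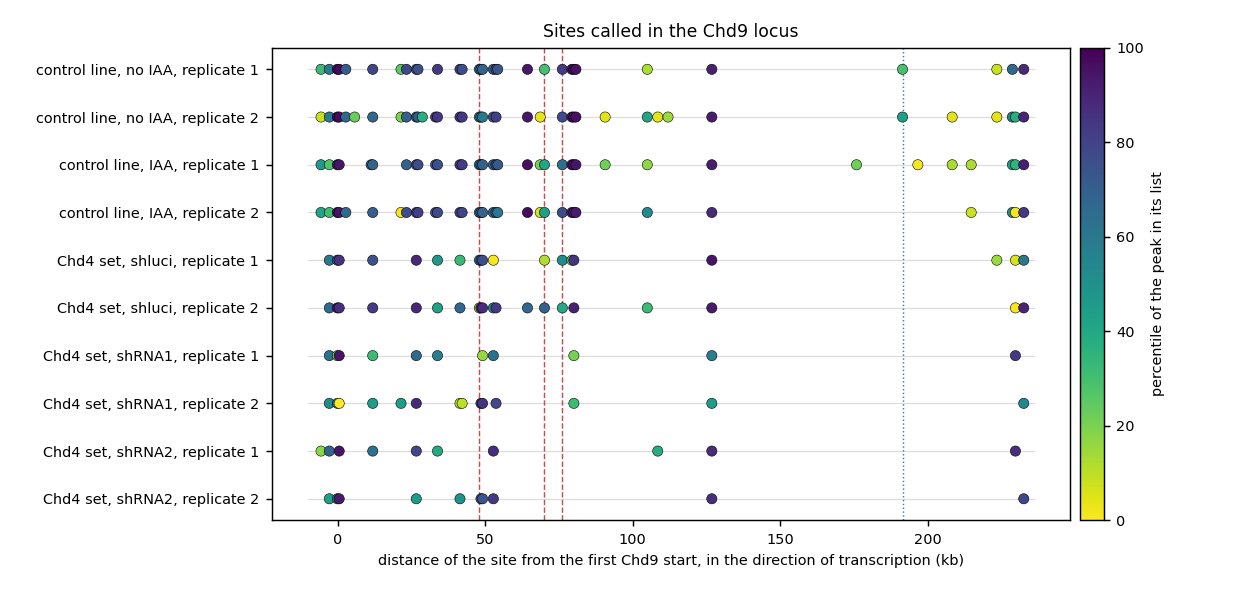
Sites of the Chd9 locus called in the control line and the Chd4 set (rows), by distance from the first start (horizontal axis, kb), coloured by percentile. Red dashed lines mark the 3 sites lost with both Chd4 hairpins, and the blue dotted line marks the site at 191 kb lost with IAA in both media.

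In the Chd8 set, none of the 8 CHD promoters was higher, and none lower, in all 4 hairpin libraries than with shluci. Of all 15937 genes tested, 3.98% were higher and 6.17% lower. The median promoter difference over the 6 genes with a peak was 0.121 percentile points, and over all genes 0.00406. The promoter of Chd8 itself stood at 97.2 and 98.8 with shluci, at 99.5 and 98.3 with shRNA1 and at 98.3 and 98.2 with shRNA2. Its difference of 0.616 ± 1.28 was within the spread (exact permutation p = 0.533). Chd1 stood between 93.3 and 99.2, Chd6 between 91.0 and 99.3, and Chd9 between 88.2 and 98.9 in all 6 libraries.

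Chd7 had the widest promoter spread of the set. It stood at 41.2 and 33.4 with shluci, at 65.5 and 0 with shRNA1 and at 72.2 and 45.7 with shRNA2. Without the second shRNA1 library, which had no peak, Chd7 and Chd9 stood higher in all remaining hairpin libraries, where 8.93% of genes tested did. Leaving out a shluci library also changed the calls. Without the first, Chd1 and Chd2 were lower and 27.0% of all genes were. Without the second, Chd1 and Chd8 were higher and 26.4% of all genes were.

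Chd6 was the one CHD locus whose peak counts did not overlap in the Chd8 set, where 3.38% of 19404 genes tested were lower and 3.66% higher. It held 12 and 21 peaks with shluci, 10 and 10 with shRNA1 and 10 and 6 with shRNA2. The difference was −7.5 ± 6.67 peaks (combined SD, exact permutation p = 0.0667), with the first shluci library 2 peaks above the nearest hairpin library. Without the second shluci library the Chd6 difference was −3 peaks, and without the first it was −12. The Chd6 promoter stayed at 96.3, 97.5, 91.0 and 99.3 with the hairpins. Its groups overlapped with deposited list lengths (a difference of −9 peaks), over the gene body alone (−4.5), among peaks with −log10 q of at least 10 (0) and by covered bases. Chd9 held 38 and 38 peaks with shluci, 36 and 41 with shRNA1 and 32 and 29 with shRNA2, so the hairpins differed. Chd8 held 8 and 8 with shluci and 9, 13, 8 and 6 with the hairpins. Without the first shluci library, Chd3 was also lower, where 12.7% of genes were. Without the second, Chd7 was also lower (15.6% of genes) and Chd3 higher (13.1%), and without the second shRNA1 library Chd9 was also lower (5.78%).

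Losses and gains at single sites were few in the Chd8 set. Of 64 CHD sites that could be lost, 2 were (3.13%), beside 3.46% of all windows, and of 84 that could be gained none was, beside 1.28%. The lost sites were intronic, at 56.9 kb in Chd2 (percentiles 26.6 and 17.9 with shluci) and at 140 kb in Chd7 (12.0 and 13.7). Both stood low in their lists, and the Chd7 site was called by those 2 libraries alone.

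The promoter of Chd4, the gene targeted in the other set, was also read in the Chd8 set. It stood at 72.1 and 58.0 with shluci, at 35.1 and 45.5 with shRNA1 and was without a peak in both shRNA2 libraries (exact permutation p = 0.133). The groups did not overlap, and 6.17% of all genes tested were lower in this way. Its difference was −44.8 percentile points, and 0.483% of genes had a more negative one. Chd4 itself is no member of the 8 genes. In the Chd4 set its promoter had no peak in either shluci library and percentiles of 22.5, 7.13, 0 and 0 with the hairpins.

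Several CHD promoters stood at other places in the lists with IAA in serum-free medium. Between 2 libraries with and 2 without IAA, groups did not overlap for 5 of the 8 genes, with 2 higher and 3 lower, where 24.7% of 15906 genes tested were higher and 16.6% lower. With 2 against 2 the smallest exact permutation p is 0.333. Chd5 had no promoter peak in either library without IAA and stood at 43.7 and 38.3 with IAA. The site under this peak was centred 1175 bp from the first start and 939 bp from the second. It stood at 19.5 and 0 in the wild-type CTCF line and at 10.6 and 24.5 in the mutated CTCF line, both with IAA, and was not called in any library of the other sets. With a promoter distance of 500 bp, neither Chd5 nor Chd7 was called higher, where 24.5% of genes tested were. The Chd5 difference was 0 there, and that of Chd7 was 10.8 with groups that overlapped. Chd5 was also not called higher within 2 kb of a start, in lists at 50% of the shortest or among peaks with −log10 q of at least 10.

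The other differences at serum-free promoters were smaller than that of Chd5. Chd7 stood at 70.8 and 70.8 without IAA and at 73.8 and 72.5 with it. In deposited lists the Chd7 groups overlapped, at 73.6 and 74.8 without IAA and 73.8 and 74.4 with it, and among peaks with −log10 q of at least 10 Chd7 was lower (−1.96), where 29.1% of genes were. Chd1 stood at 96.8 and 96.9 without and at 95.2 and 94.1 with IAA, Chd9 at 97.1 and 96.9 against 94.3 and 94.6, and Chd6 at 99.8 and 99.8 against 99.2 and 99.4. Groups in serum did not overlap for 3 genes, with 1 higher and 2 lower, where 16.9% of 15085 genes tested were higher and 18.5% lower. Chd1 stood at 74.6 and 82.8 without IAA and at 97.4 and 90.1 with it, opposite to serum-free medium. Chd9 was lower in both media, at 88.4 and 88.7 without IAA against 80.4 and 85.7 with it in serum. In deposited lists the Chd9 groups in serum overlapped, at 90.004 and 88.7 without IAA and 83.7 and 89.6 with it, and they also overlapped among peaks with −log10 q of at least 10. Chd8 stood at 99.5 and 99.4 without and at 97.96 and 98.6 with IAA in serum.

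Over whole loci in serum, Chd1 and Chd2 held fewer peaks with IAA and Chd7 more, where 11.2% of 18249 genes tested were lower and 6.71% higher. Chd2 held 10 and 14 peaks without IAA and 7 and 8 with it, Chd1 7 and 5 against 4 and 3, and Chd7 7 and 6 against 9 and 9. In deposited lists the Chd2 and Chd1 groups overlapped, and among peaks with −log10 q of at least 10 the Chd2 difference was 1.5 peaks. The Chd7 difference was 0.5 in lists at 50% of the shortest, where no CHD locus was called. At that −log10 q Chd9 was higher in place of Chd7, where 12.7% of genes tested were. In serum-free medium Chd5 held 7 and 7 peaks without IAA and 9 and 9 with it and no other CHD locus was called, where 9.77% of 18841 genes tested were higher and 10.9% lower. The Chd5 difference was 0 in lists at 50% of the shortest. Chd7 was higher there in its place, where 6.97% of genes were, and Chd8 lower, where 9.57% were. Among peaks with −log10 q of at least 10 the Chd5 difference was also 0. No CHD locus was higher there, where 2.65% of genes were, and Chd1 and Chd8 were lower, where 20.4% were. By covered bases, Chd1 and Chd2 were higher in place of Chd5, where 26.3% of genes were.

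Single sites in the CHD loci were lost and gained with IAA at shares set beside those of all windows. In serum-free medium 7 of 101 were lost (6.93%, beside 6.60% of all windows) and 8 of 62 gained (12.9%, beside 9.38%). In serum 6 of 60 were lost (10%, beside 8.58%) and 4 of 127 gained (3.15%, beside 3.54%). The comparison of shares shows the CHD loci beside all windows for each contrast. Of 55 CHD sites that could be lost in both media, 2 were (3.64%, beside 3.04% of all windows), one in an intron of Chd1 and one in an intron of Chd9. The Chd1 locus held 3 of the 6 serum losses, out of 5 sites that could be lost.

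The 2 sites lost in both media, and a further site with the CTCF consensus, are shown with 81 bases each on the plus strand of GRCm38. Capitals mark the match to the consensus CTCF sequence, of 14 letters, searched on both strands with at most 1 mismatch.
Chd9 intron, 191 kb, chr8:91019929-91020009: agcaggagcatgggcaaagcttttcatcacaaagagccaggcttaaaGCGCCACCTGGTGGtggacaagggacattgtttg
Chd8 flank within Supt16, 66.8 kb, chr14:52190850-52190930: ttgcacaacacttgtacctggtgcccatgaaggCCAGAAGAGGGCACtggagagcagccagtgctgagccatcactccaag
Chd1 intron, 10.2 kb, chr17:15715176-15715256: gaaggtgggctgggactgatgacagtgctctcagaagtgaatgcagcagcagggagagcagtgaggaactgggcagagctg
The Chd9 site matched the consensus with 0 mismatches, the Chd8 flank site with 1, and the Chd1 site held no match. The consensus was found in 10 of the 208 CHD sites (4.81%) and in 5.57% of all windows, so the loci were not rich in it.

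The Chd9 site at 191 kb was at percentiles 29.5 and 44.1 without IAA and was not called with IAA in serum-free medium. It was called again in both overexpression lines with IAA, at 0.790 and 10.9 with wild type CTCF and at 17.1 and 48.2 with mutated CTCF. In serum it was at 7.30 and 54.9 without IAA and was not called with it. The Chd8 flank site was at 69.0 and 71.8 without IAA and not called with it, then at 50.5 and 0 with wild type CTCF and at 0 and 0 with mutated CTCF. In serum that site was at 63.4 and 69.1 without IAA and at 0 and 39.4 with it. The Chd1 site was at 48.9 and 33.7 without and not called with IAA, at 0 and 3.52 with wild type CTCF and at 15.3 and 15.5 with mutated CTCF.

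Of 7 CHD sites with the consensus that could be lost in serum-free medium, 3 were lost (42.9%), beside 34.8% of all windows with the consensus and 6.60% of all windows. These were the Chd9 site at 191 kb, the Chd8 flank site and a site with 1 mismatch near the Gm44645 start, 119 kb from the Chd2 start, which was at 55.7 and 52.3 without IAA. In serum 1 of 5 was lost, the Chd9 site, beside 40.8% of all windows with the consensus. The other 4 of the 7 were called in both libraries with IAA. The Chd9 intronic site at 127 kb, with 1 mismatch, was called in all 24 libraries, at 91.2 and 92.02 without IAA and 91.96 and 89.1 with it. The Chd5 upstream site 5.42 kb away, within Rpl22, was at 76.4 and 76.6 without IAA and at 62.6 and 50.6 with it. A further match in the flank of Chd2, within Rgma, had 0 mismatches and was called in all 8 libraries of the CTCF lines.

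The lines overexpressing CTCF were set against the control line with IAA, whose 2 libraries also form the treated group of the serum-free contrast, so these contrasts are not independent. With wild type CTCF, 9 of 108 CHD sites were lost (8.33%, beside 4.82%) and 5 of 63 gained (7.94%, beside 8.10%). With mutated CTCF, 6 of 108 were lost (5.56%, beside 3.63%) and 7 of 63 gained (11.1%, beside 7.68%). With deposited list lengths, 1 of 111 was lost with wild type CTCF (0.901%, beside 2.84%) and 12 of 59 gained (20.3%, beside 12.3%). Under that setting 1 of 111 was lost with mutated CTCF (0.901%, beside 2.35%) and 7 of 59 gained (11.9%, beside 11.3%). Chd2 held 4 of the losses with wild type and 3 with mutated CTCF, and Chd8 held none with either.

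**Figure D5:**
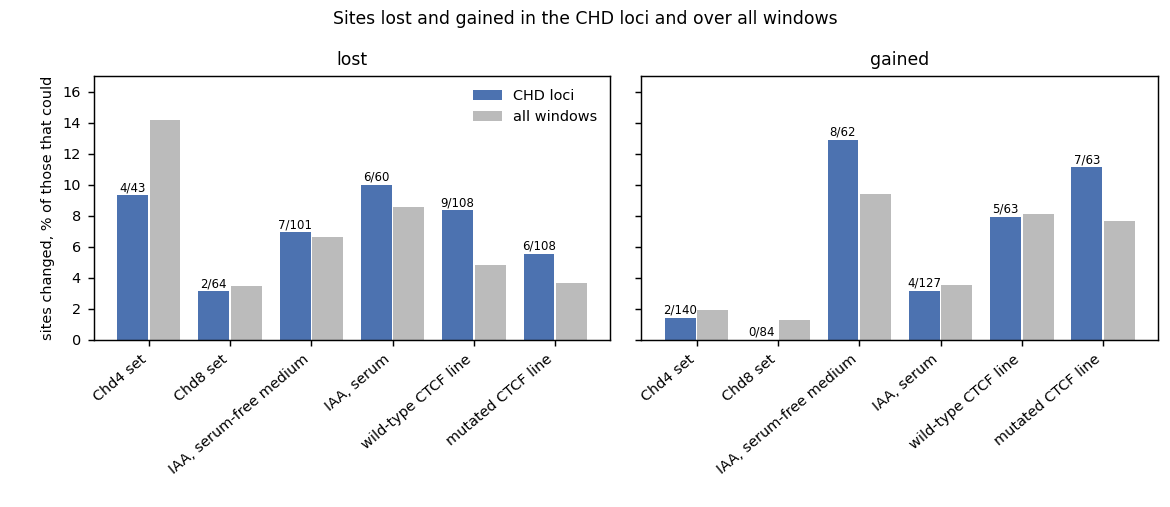
Share of sites lost (left) or gained (right), as a percentage of the sites that could be lost or gained, in the CHD loci (blue, with counts) and over all windows (grey) for 6 contrasts. In the Chd4 set 4 of 43 CHD sites were lost, 9.30% against 14.2% of all windows.

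Each of the 7 other motifs searched was found in a smaller share of the 208 sites than of all windows, and the difference was not tested. The octamer was in 3.37% of CHD sites and 4.18% of all windows, the Esrrb motif CAAGGTCA in 4.81% and 5.96%, the ETS motif CCGGAAG in 4.33% and 5.12%, the AP-1 motif TGANTCA in 13.5% and 15.01%, the E-box CACGTG in 8.65% and 9.31% and CCAAT in 40.4% and 49.0%, each on either strand and with overlaps between motifs allowed. The NRF1 motif was in none of the 208 and in 0.256% of all windows.

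The genes with promoter places most like each always-open CHD promoter were found over the 24 deposited lists among 6329 genes with a promoter peak in every list. For Chd8 they were Asah1 and Hint3, with mean absolute differences of 1.35 and 1.37 percentile points. For Chd9 they were Fnta at 2.51 and Ndufab1 at 2.70, and for Chd1 Zfp639 at 3.52 and Cars2 at 3.54.

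Facts of the series that bear on these values follow. The lists held 59786 to 166697 peaks, and at most 0.224% of intervals were identical between the 2 libraries of a group. Stem cell genes had promoter peaks in 16 to 24 libraries (Pou5f1 in 16, Nanog in 24). Genes of other cell types often had them too: endoderm genes in 17 to 24, neural genes in 17 to 21 and fibroblast genes in up to 24, with Postn in none. Promoter peaks therefore do not separate these cell types, and the labelled identity was not tested further.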

How the data were processed

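ATAC-seq peak lists of 24 libraries in 12 groups of 2 were used. Per the submitters' processing notes, Trim Galore, Bowtie2, MACS2 and deepTools were used with mm10, and no version, duplicate handling or insertion shift is given in the sources used here. The lists are narrowPeak, 1 per library, and depth is not given. The deposited ratio is the fold of a peak over its local background, the deposited −log10 p and −log10 q are its significance and the deposited score is MACS2's own. The authors' values were used only to rank and filter peaks within a list. Peaks beyond chromosome ends numbered 0.

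Lists were reduced within each set to the shortest (120137, 80619, 135410 and 59786 peaks) by −log10 p. Genes and starts came from GENCODE M21, and sequences from GRCm38.p6. Sites are 501 bp windows around summits, without overlap, called by at least 2 libraries (233707 of 405820). A gene was called when the groups did not overlap, beside two-sided exact permutation tests. Counts and overlaps were checked by direct counting and on simulated lists with Python 3.11.15, numpy 2.4.6, pandas 2.3.3 and matplotlib 3.10.9.

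The genes and lists were chosen with earlier results of these data known. All 8 genes are named, with sites lost or gained with both hairpins or lost with IAA in both media; the consensus sites in Supt16, Chd9, Chd5 and Chd2 and the Chd8-locus sites were chosen after their values were seen. Alternatives were list length, a −log10 q of 10, leaving out a library, the replicate block, locus bounds, covered bases, promoter distance and window coverage.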

Additional observations from a re-analysis of the deposited data

Results flagged for a closer look

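Chd1 was marked for opposite movement in the 2 media. Its promoter percentile differed by −2.24 with IAA in serum-free medium, where both libraries with IAA lay below both without. In serum it differed by 15.1, where both with IAA lay above both without. The difference between the media was not tested. The values were −4.48 and 30.1 in lists at 50% of the shortest.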

How the results depend on the processing

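No CHD result here rests on a p under 0.05, since the design cannot give one, and absence from a list places a site under that list's limit, not at 0 accessibility. Among genes called in the Chd sets or with IAA, 3 differences changed sign under an alternative. Among peaks with −log10 q of at least 10, Chd8 over its locus in the Chd4 set was at −2.5. Chd2 over its locus with IAA in serum was at 1.5 there. List lengths were unequal at that −log10 q. The Chd7 promoter with IAA in serum-free medium was at −0.114 with deposited lists and −1.96 at that −log10 q. Values are counts of CHD genes or sites, with the share of all genes or windows under the same setting in parentheses. The cause of each change was not tested.

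With deposited list lengths, Chd7 in place of Chd8 was higher over its locus in the Chd4 set (2.92%), where 0 sites were gained (2.36%). The Chd8 set had 0 loci lower (5.94%) and 4 sites lost (3.92%). IAA in serum-free medium gave 1 promoter higher (16.3%), 3 loci lower (18.5%), 12 sites lost (7.32%) and 3 gained (8.30%). IAA in serum gave 2 promoters higher (27.2%) and 1 lower (10.4%), 2 loci higher (16.1%) and 0 lower (4.31%), and 3 sites lost (6.65%). Wild type CTCF gave 1 lost (2.84%) and 12 gained (12.3%), and mutated CTCF 1 lost (2.35%).

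At 50% of the shortest list, the Chd4 set had 0 loci higher (4.76%) and 0 sites gained (1.05%), and the Chd8 set 1 locus higher, Chd8 (2.30%). IAA in serum-free medium gave 1 promoter higher (24.2%), 1 locus lower (9.57%) and 4 sites lost (6.45%). IAA in serum gave 0 loci higher (4.73%), 0 lower (7.86%) and 1 site gained (1.45%). Wild type CTCF gave 4 lost (4.45%) and 1 gained (1.93%), and mutated CTCF 1 (3.31%) and 1 (1.90%).

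With −log10 q of at least 10, the Chd4 set had 0 loci higher (0.728%) and 0 sites gained (0.135%), and the Chd8 set 0 loci lower (1.82%), 0 sites lost (2.86%) and 1 gained (0.0880%). IAA in serum-free medium gave 0 promoters higher (12.97%), 0 loci higher (2.65%), 2 lower (20.4%) and 3 sites gained (2.23%). IAA in serum gave 1 promoter lower (7.04%), 0 loci lower (2.00%), 1 site lost (4.10%) and 2 gained (2.41%). Wild type CTCF gave 4 lost (2.20%) and 0 gained (4.63%), and mutated CTCF 2 (1.53%) and 2 (4.43%).

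Over gene bodies, 0 loci were higher in the Chd4 set (4.65%), 0 lower in the Chd8 set (2.90%), 1 lower with IAA in serum-free medium (8.24%) and 2 higher in serum (5.66%). Sites gained there were 1 of 114 in the Chd4 set (0.877%, beside 1.92% of all windows) and 5 of 49 with IAA in serum-free medium (10.2%, beside 9.38%). The shares beside these 2 site counts are of all windows and were not limited to gene bodies. By covered bases, 0 loci were higher in the Chd4 set (3.61%), 0 lower in the Chd8 set (1.38%), 2 higher with IAA in serum-free medium (26.3%), and 3 higher (37.9%) and 0 lower (7.89%) in serum. With 50% of a window covered, 0 sites were gained in the Chd4 set (0.0237%), 0 lost in the Chd8 set (2.02%), and 1 (2.51%) and 4 (3.92%) gained with wild type and mutated CTCF. Promoters higher with IAA in serum-free medium were 0 within 500 bp (24.5%) and 1 within 2 kb (24.7%).

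Leaving out 1 library in turn, the Chd4 set gave 1 to 3 loci higher (6.57% to 9.23%), 2 to 3 lower (18.1% to 27.5%), 0 to 0 promoters higher (5.53% to 7.80%) and 2 to 4 lower (25.1% to 34.4%). The Chd8 set gave 0 to 1 loci higher (5.37% to 13.1%), 1 to 2 lower (5.19% to 15.6%), 0 to 2 promoters higher (5.81% to 26.4%) and 0 to 2 lower (8.47% to 27.0%). IAA in serum-free medium gave 1 to 3 loci higher (18.4% to 22.04%), 1 to 2 lower (19.99% to 21.035%), 2 to 4 promoters higher (37.9% to 45.0%) and 3 to 4 lower (27.4% to 32.3%). In serum these were 1 to 4 (13.9% to 16.5%), 2 to 4 (19.2% to 23.7%), 1 to 2 (29.99% to 36.02%) and 2 to 4 (29.9% to 37.1%).

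Sites lost and gained with the same omissions, in which fewer libraries have to share a call, ranged over 4 to 12 (17.5% to 22.6%) and 2 to 3 (2.42% to 3.01%) in the Chd4 set and 3 to 12 (4.65% to 10.4%) and 0 to 3 (2.03% to 4.77%) in the Chd8 set. They ranged over 9 to 18 (10.2% to 11.1%) and 11 to 22 (13.2% to 24.9%) with IAA in serum-free medium and 7 to 13 (12.9% to 15.9%) and 4 to 12 (5.63% to 8.84%) in serum. Wild type CTCF gave 12 to 25 (8.33% to 12.4%) and 6 to 18 (11.1% to 19.4%), and mutated CTCF 10 to 20 (7.24% to 9.22%) and 11 to 14 (12.3% to 19.2%). The most losses in both Chd sets came without the first shluci library (12 and 12).

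In lists cut to equal length, libraries with the same number in the Chd sets and with IAA did not deviate together over genes (correlation of deviations −0.163 to 0.0909). The numbers were therefore not taken to pair them. In the Chd4 set, the first libraries of shluci, shRNA1 and shRNA2 had deposited lists of 135583, 140936 and 141742 peaks. The second libraries had 93091, 91397 and 80619. An effect shared by number in the deposited lists was not tested. With the replicate block, 2 loci were higher in the Chd4 set, Chd7 and Chd8 (6.56%), and 1 was lower with IAA in serum-free medium, Chd6 (14.4%). The block moved no other count by over 1.5 times, and site counts are the same with it by construction. In the wild-type and mutated CTCF contrasts the same-numbered deviations correlated at −0.112 to −0.118. Between shluci and shRNA1 of the Chd8 set they correlated at −0.163 for promoters and −0.122 for locus peaks. The crossed replicate block, added after seeing the data, was used for the 2 CTCF line contrasts only. It gave 9 lost and 5 gained with wild type CTCF and 6 lost and 7 gained with mutated CTCF, the counts without it.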
